A study of Mus musculus with 24 samples.

Results

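The genes described here are 46 mouse genes that encode building blocks of the sarcomere, out of 37041 genes in the expression tables. They were taken by gene symbol from a list of sarcomere genes, and all 46 were found. The 46 genes occupied 47 rows of each table, because Nrap has a pair of overlapping entries, which were summed. The list goes under the name of thin filament and Z-disc genes, and it is wider than that name. It holds 2 sarcomeric actins, 3 tropomyosins, 3 genes of the nebulin family, 4 tropomodulins and leiomodins that cap or start thin filaments, and 14 Z-disc genes. It also holds 5 myosin light chains and 7 myosin-binding and M-band genes, which belong to the thick filament, as well as 4 genes for titin and the ankyrin repeat proteins that bind it, and 4 genes for desmin and for chaperones of muscle proteins.

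The sarcomere is the contractile unit of striated muscle. Thin filaments of actin and tropomyosin are anchored in Z-discs by alpha-actinin and slide along thick filaments of myosin, while titin spans from the Z-disc to the M-band and nebulin runs along the thin filament. When myoblasts leave the cell cycle and fuse, MyoD family factors, which bind E-boxes, act with MEF2 factors and with serum response factor, which binds CArG boxes, to turn these genes on together. Brown adipocytes arise from embryonic precursors that also give rise to skeletal muscle, and brown fat lies against muscle in the newborn mouse. NFIA belongs to the nuclear factor I family of DNA-binding proteins.

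The libraries were of polyadenylated RNA, 3 in each of 8 groups. C2C12 is a mouse myoblast line that fuses into myotubes in culture. NFIA-expressing cells were set against control cells after 7 days with 10 µM forskolin for 4 h, after 7 days without it, and at day 0. Forskolin switches on adenylyl cyclase and so raises cyclic AMP. Brown adipose tissue of mouse newborns labelled NFIA-KO was set against that of wild-type (WT) newborns. The labels give no vector or promoter for NFIA, no culture medium, no age in days and no account of which bases the knockout allele lacks. They do not say whether libraries of a group came from separate cultures or animals, so the p-values measure only the spread between these libraries.

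Values are FPKM, fragments per kilobase of transcript scaled to the mapped fragments of a library, as the authors deposited them. Their sum over all genes was between 762822 and 1575522 in a library, and between 17304 and 21410 genes were above 0. Read totals were not at hand, and depth is therefore unknown. Nfia itself was at 9876, 10448 and 9232 FPKM in NFIA-expressing cells at day 7 with forskolin, 3585, 3256 and 3189 FPKM at day 7 and 1283, 1273 and 1252 FPKM at day 0. Control C2C12 cells held between 0.26 and 2.23 FPKM of it. In tissue the targeted gene was not lower in the libraries labelled NFIA-KO: Nfia was at 44.6, 40.1 and 39.4 FPKM in the libraries labelled NFIA-KO and 24.3, 32.8 and 32.6 FPKM in WT libraries, and the difference did not pass the test (limma adjusted p = 0.097). Whole-gene FPKM does not show whether a part of the gene is missing. The cell line libraries fall under an earlier header date, with 1 library of each group, and a later one, with the other 2. Among adipocyte genes, Ucp1, the uncoupling protein of brown fat, was at 1594, 1674 and 1445 FPKM in the libraries labelled NFIA-KO and 7239.6, 4753 and 4073 FPKM in WT libraries. A list of 10 adipocyte genes summed to 18940, 23669 and 21692 FPKM in the libraries labelled NFIA-KO and 34820, 30554 and 8492 FPKM in WT libraries. Fabp4, a gene of this list, is listed at 0 in replicate 3 of the WT group, the library with the lowest sum. NFIA-expressing C2C12 cells at day 7 held 22867 to 25079 FPKM of the 10 genes, so the list does not by itself mark the tissue. Myod1, which marks the myoblast lineage, was between 11.5 and 17.9 FPKM in the 6 day 0 libraries of C2C12 cells.

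Promoter sequence was at hand for 36 of the 46 genes, from RefSeq on GRCm38.p6, as 250 bases before each annotated start. The windows of 6 genes described below are printed: the actins Acta1 and Actc1, the light chains Mylpf, Myl1 and Myl4, and Ankrd1, whose time course in NFIA-expressing cells ran against that of most of the others. No comparison of expression used these windows. Each runs 5′ to 3′ along the strand of the gene and ends at the base before the start, and capitals mark E-box and CArG box matches.
Acta1 (GRCm38.p6, minus strand, chr8:123894776-123895025): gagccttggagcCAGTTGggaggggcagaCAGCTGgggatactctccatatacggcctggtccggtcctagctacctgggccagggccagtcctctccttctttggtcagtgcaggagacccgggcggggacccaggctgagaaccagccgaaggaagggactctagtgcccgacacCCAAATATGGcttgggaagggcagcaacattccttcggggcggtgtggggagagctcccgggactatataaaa
Actc1 (minus strand, chr2:114052876-114053125): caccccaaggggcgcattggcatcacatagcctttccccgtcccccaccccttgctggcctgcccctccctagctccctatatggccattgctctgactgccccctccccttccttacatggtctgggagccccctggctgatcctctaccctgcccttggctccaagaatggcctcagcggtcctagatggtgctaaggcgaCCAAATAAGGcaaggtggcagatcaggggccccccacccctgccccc
Mylpf (plus strand, chr7:127211358-127211607): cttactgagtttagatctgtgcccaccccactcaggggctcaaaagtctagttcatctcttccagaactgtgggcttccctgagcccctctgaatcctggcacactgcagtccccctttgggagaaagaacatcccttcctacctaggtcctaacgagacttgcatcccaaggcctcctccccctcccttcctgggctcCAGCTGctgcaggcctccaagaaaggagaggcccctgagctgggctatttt
Myl1 (minus strand, chr1:66945057-66945306): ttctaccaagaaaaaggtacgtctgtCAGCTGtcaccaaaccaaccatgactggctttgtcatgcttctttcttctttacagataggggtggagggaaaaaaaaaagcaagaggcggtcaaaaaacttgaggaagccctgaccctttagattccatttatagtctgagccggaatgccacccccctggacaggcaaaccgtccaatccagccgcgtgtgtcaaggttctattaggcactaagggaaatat
Myl4 (plus strand, chr11:104550413-104550662): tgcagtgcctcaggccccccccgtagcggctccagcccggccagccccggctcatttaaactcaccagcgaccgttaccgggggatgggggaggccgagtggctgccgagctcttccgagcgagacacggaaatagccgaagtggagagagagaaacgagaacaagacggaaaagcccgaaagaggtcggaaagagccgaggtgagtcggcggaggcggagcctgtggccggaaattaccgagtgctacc
Ankrd1 (minus strand, chr19:36119845-36120094): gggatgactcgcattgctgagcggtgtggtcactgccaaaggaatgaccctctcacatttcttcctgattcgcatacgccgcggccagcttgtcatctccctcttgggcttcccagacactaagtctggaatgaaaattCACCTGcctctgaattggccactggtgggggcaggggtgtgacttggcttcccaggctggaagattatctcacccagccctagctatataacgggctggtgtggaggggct

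Acta1 and Actc1 each held a CArG box, 63 and 37 bases before the start, and Acta1 held 2 E-boxes as well. Mylpf, Myl1 and Ankrd1 each held 1 E-box, while the Myl4 window held no E-box, CArG box or MEF2 match. Across genes, an E-box (CANNTG, which reads alike on both strands) was found for 30 of the 36 genes, or 83.3%, against 66.2% of all 32851 windows. Some of the 36 genes have more than 1 window: of their 46 windows, 76.1% held an E-box. A CArG box was found for 6 genes (Acta1, Actc1, Ldb3, Myl3, Myom1 and Nebl) and in 15.2% of their windows, against 1.47% of all windows. A MEF2 match was found for 5 genes (Myom3, Myoz2, Synpo2l, Ttn and Xirp2) and in 13.0% of windows, against 2.92% of all. The M-CAT element CATTCC, searched on both strands, was found for 12 genes and in 26.1% of windows, against 12.6% of all. The full NFI site, TTGGC and GCCAA set 5 bases apart, was in 0 of the 46 windows and in 0.0365% of all windows, and a single arm TTGGC, on both strands, was in 34.8% of the 46 windows, against 41.5% of all. A match is a run of letters in these 250 bases, and does not show binding.

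In control C2C12 cells the sarcomere genes took up far more of the RNA at day 7 than at day 0. Summed over the 46 genes, control cells held 35090, 36106 and 37784 FPKM at day 7, against 1278, 1435 and 1483 FPKM at day 0. That was 3.26% to 3.30% of all FPKM at day 7 and 0.149% to 0.16% at day 0. Of the 46 genes, 41 had a mean of at least 10 FPKM at day 7 and 8 had one at day 0. Mylpf, the fast-muscle regulatory light chain of myosin, made up 58.8% to 61.6% of the day 7 sum.

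**Figure D1:**
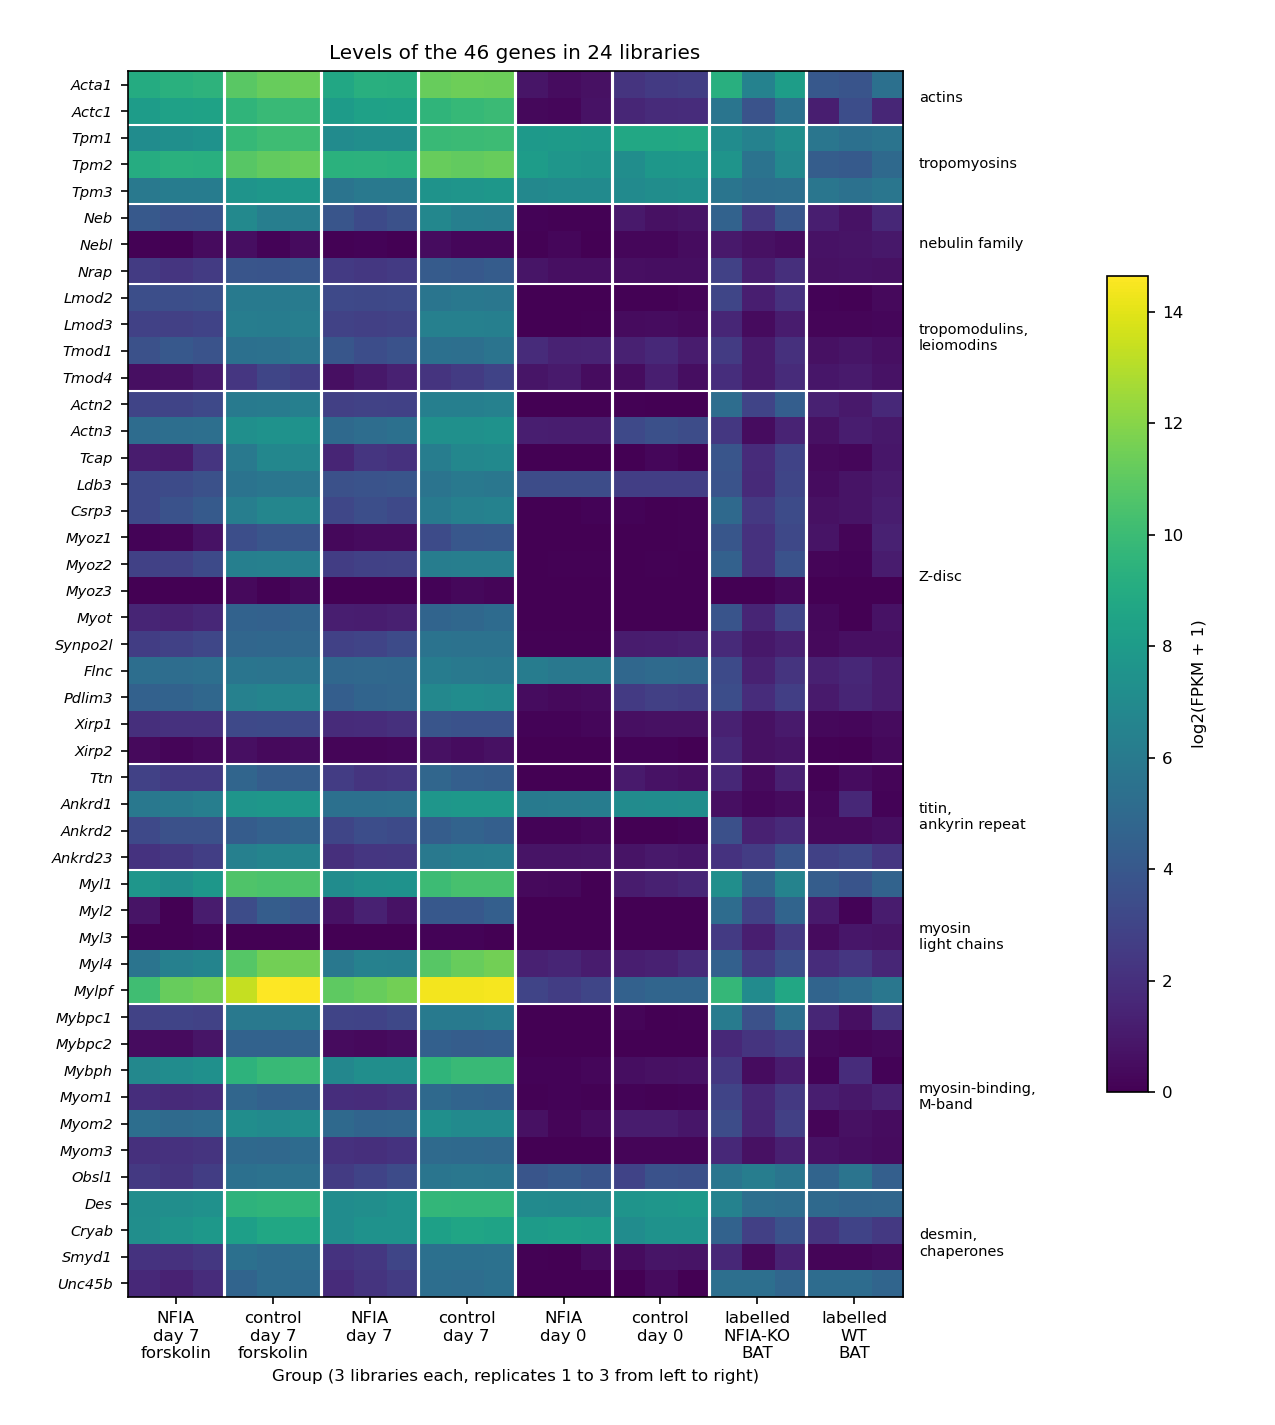
Levels of the 46 sarcomere genes in all 24 libraries, as log2(FPKM + 1), with genes in rows by role and libraries in columns by group, the NFIA-expressing or labelled NFIA-KO group left of its control or WT group. Control columns at day 7 are the strongest coloured, with 41 genes at a mean of at least 10 FPKM, against 19 genes in NFIA-expressing cells at day 7.

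A gene was tested where it reached 1 FPKM in at least 3 libraries of a fit, which 42 of the 46 genes did in C2C12 cells. Nebl, Myoz3, Xirp2 and Myl3 did not and never exceeded 0.59 FPKM there. Most of the 42 passed this filter through their day 7 values, since 18 of the 46 were at 1 FPKM or more in all 3 control libraries at day 0 and 42 at day 7, so the counts below are counts of tested genes. Fold changes are on the log2(FPKM + 1) scale, which understates changes of low genes, and a gene was called at a limma p under 0.05 after Benjamini-Hochberg adjustment over all 14351 genes tested. By that rule 42 of the 42 tested genes rose in control cells at day 7 against day 0, while 48.9% of all tested genes were called in either direction and 24.9% were called higher. Their median change was 4.53 on the log2 scale, against 0.02 over all tested genes. The 42 genes were above every day 0 value in all 3 day 7 libraries, and 53.3% of all tested genes had groups that did not overlap, 27.5% with day 7 higher.

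The myosin light chains Myl4, Mylpf and Myl1 were among the 4 genes with the largest log2 changes. Mylpf was at 21626, 21288 and 22207 FPKM in control cells at day 7, against 22.8, 26.7 and 26.3 FPKM at day 0. Myl4, the embryonic and atrial essential light chain, was at 1862, 2414 and 2914 FPKM at day 7, against 1.30, 1.53 and 2.39 FPKM at day 0, a change of 9.77 ± 0.27 (log2, SE; adjusted p = 4.3e-13). Myl1, the fast-muscle essential light chain, was at 1059.8, 1312 and 1311 FPKM at day 7, against 1.2, 1.57 and 2.03 FPKM at day 0. Myl4 and Myl1 were below 2.5 FPKM in every day 0 library, and all 3 were among the 6 genes with a mean of at least 1000 FPKM at day 7. Acta1, the actin of adult skeletal muscle, was at 2424, 2707 and 2603 FPKM at day 7, against 3.53, 4.70 and 5.30 FPKM at day 0 (log2 change 8.88 ± 0.17, adjusted p = 6.5e-15). Actc1, the cardiac actin that embryonic skeletal muscle also makes, was at 777, 916 and 993 FPKM at day 7, against 2.03, 2.50 and 2.63 FPKM at day 0. Mybph, the myosin-binding protein H gene, was at 772, 977 and 953 FPKM at day 7, against 0.46, 0.56 and 0.62 FPKM at day 0. Its log2 change of 9.18 ± 0.16 was the third largest of the 42.

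Z-disc genes differed in where they started: Flnc, Actn3, Ldb3 and Pdlim3 averaged between 5.32 and 30.4 FPKM in control cells at day 0. Others were barely present, among them Actn2, Tcap, Myoz2 and Csrp3, and also Myot, Myoz1, Myoz3 and Xirp2. Actn2, the alpha-actinin of all striated muscle, was at 79.7, 79.8 and 85.8 FPKM at day 7, against 0.05, 0.04 and 0.01 FPKM at day 0 (log2 change 6.32 ± 0.08, adjusted p = 1.3e-16). Tcap, telethonin, which caps titin at the Z-disc, was at 73.7, 110.0 and 121 FPKM at day 7, against 0.04, 0.19 and 0.05 FPKM at day 0. Myoz2, a calcineurin-binding Z-disc protein, was at 73.6, 75.6 and 74.5 FPKM at day 7, against 0, 0.08 and 0 FPKM at day 0, and Csrp3, the muscle LIM protein, changed by 6.25 on the log2 scale. The day 0 libraries of these 4 genes were all below 0.2 FPKM and the day 7 libraries all above 65 FPKM. A second set of genes was already high in myoblasts and rose less. Tpm3, the slow-muscle tropomyosin gene, which also makes non-muscle forms, had the smallest change, with 184, 201 and 215 FPKM at day 7 and 127, 144 and 154 FPKM at day 0 (log2 change 0.50 ± 0.11, adjusted p = 0.0015). Ankrd1, a titin-binding ankyrin repeat protein that responds to stretch, changed by 0.66, Flnc, muscle filamin C, by 1.01, Cryab, the small heat shock protein alpha-B crystallin, by 1.14, and Tpm1 by 1.17 on the log2 scale.

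NFIA-expressing cells at day 7 had far less of these RNAs. The 46 genes summed to 4463, 5243 and 5831 FPKM in NFIA-expressing cells, against 35090, 36106 and 37784 FPKM in control cells, or 0.372% to 0.486% of all FPKM against 3.26% to 3.30%. Of the 42 tested genes, 42 were called lower and 0 higher, while 55.5% of all tested genes were called in either direction and 29.4% were called lower. The median change was -2.76 on the log2 scale, against -0.03 over all tested genes, and the range ran from -4.99 to -1.07. All 3 NFIA libraries lay below all 3 control libraries for each of the 42 genes, in a comparison where 63.3% of all tested genes had groups that did not overlap, 33.7% with the NFIA group lower. Of the 46 genes, 42 were at 1 FPKM or more in all 3 control libraries and 38 in all 3 NFIA libraries. Some, such as Mybpc2 and Myoz1, passed the filter only through control libraries, where they were high, so their direction adds little to these counts. In bulk RNA, fewer cells that had become muscle and less of these RNAs per muscle cell cannot be told apart.

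**Figure D2:**
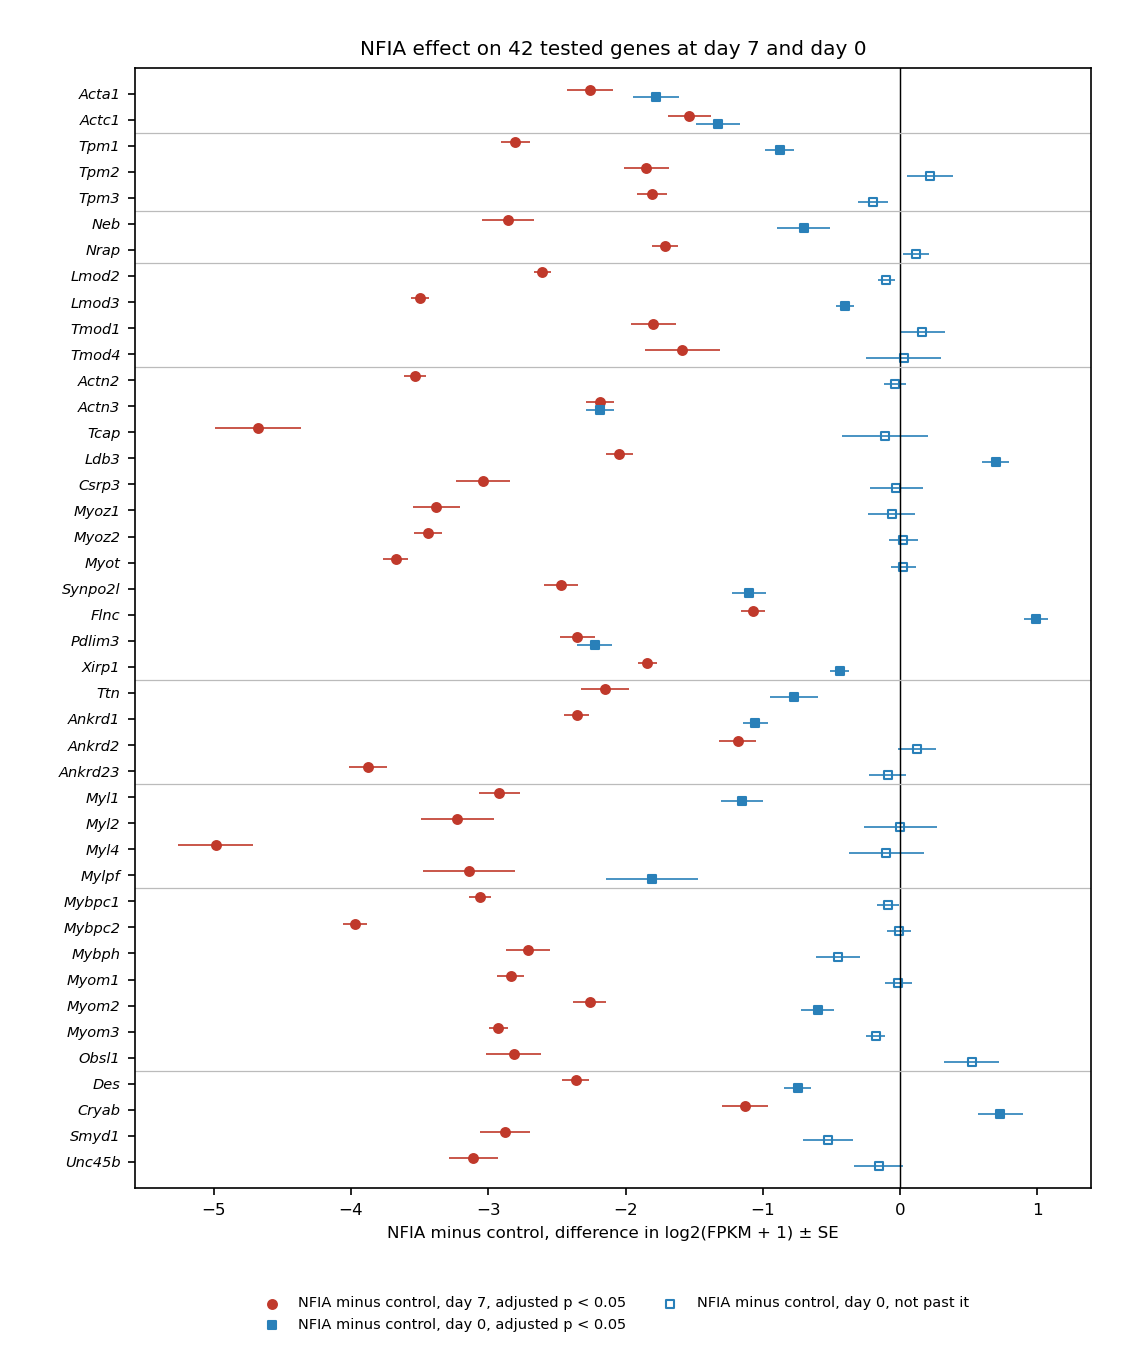
Difference between NFIA-expressing and control C2C12 cells for the 42 tested sarcomere genes, as a log2 fold change of FPKM + 1 with its SE, at day 7 (circles) and day 0 (squares); filled symbols passed the test (adjusted p under 0.05). All 42 circles are filled and lie between -4.99 and -1.07, while 18 squares are filled, 3 of them above 0.

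The sizes of the falls varied from gene to gene, and differences between genes were not tested. Acta1 was at 443, 604 and 579 FPKM in NFIA-expressing cells and 2424, 2707 and 2603 FPKM in control cells, 4.76-fold lower by the means (log2 change -2.26 ± 0.17, adjusted p = 1.8e-08). Actc1 fell less, to 257, 329 and 342 FPKM in NFIA-expressing cells, against 777, 916 and 993 FPKM in control cells, 2.90-fold lower. Tpm2, the beta-tropomyosin of muscle, was at 644, 672 and 635 FPKM in NFIA-expressing cells, against 2424, 2216 and 2399 FPKM in control cells (log2 change -1.85 ± 0.17, adjusted p = 1.6e-07). The groups were well apart for all 3, and Tpm2 was the second most abundant of the 46 RNAs in NFIA-expressing cells. Tpm1 fell by more than Tpm2, with a log2 change of -2.81 ± 0.11, and Tpm3 changed by -1.81 ± 0.11. Neb, nebulin, the ruler along the thin filament, was at 13.6, 8.65 and 11.5 FPKM in NFIA-expressing cells and 108, 78.2 and 76.9 FPKM in control cells (log2 change -2.86 ± 0.19). Lmod3, which starts new actin filaments in skeletal muscle, was at 6.28, 5.93 and 6.52 FPKM in NFIA-expressing cells and 81.2, 82.6 and 78.7 FPKM in control cells (log2 change -3.50 ± 0.06, adjusted p = 2.1e-15). Tmod1 and Tmod4, which cap the slow-growing end of the filament, changed less, by -1.80 and -1.59 on the log2 scale.

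Among Z-disc genes, Tcap had the largest log2 change, with 1.90, 3.86 and 3.27 FPKM in NFIA-expressing cells, against 73.7, 110.0 and 121 FPKM in control cells, 33.8-fold lower (log2 change -4.68 ± 0.31, adjusted p = 5.1e-09). Myot, myotilin, which crosslinks actin at the Z-disc, was at 1.30, 1.24 and 1.43 FPKM in NFIA-expressing cells, against 24.9, 28.6 and 33.2 FPKM in control cells. Actn2 was at 5.74, 6.47 and 6.25 FPKM in NFIA-expressing cells, against 79.7, 79.8 and 85.8 FPKM in control cells (log2 change -3.53 ± 0.08, adjusted p = 1.9e-14). Actn3, the alpha-actinin of fast fibres, changed less than Actn2, to 31.4, 36.2 and 40.8 FPKM in NFIA-expressing cells, against 159, 166 and 176 FPKM in control cells (log2 change -2.18 ± 0.10). Myoz2 was at 5.38, 6.0 and 6.55 FPKM in NFIA-expressing cells and 73.6, 75.6 and 74.5 FPKM in control cells, and its paralogue Myoz1 at 0.25, 0.36 and 0.34 FPKM in NFIA-expressing cells and 9.10, 14.6 and 15.3 FPKM in control cells. Both are calsarcins, and by the ratio of means Myoz2 was 12.5-fold and Myoz1 41.0-fold lower. Flnc changed least of the 42, with 29.0, 29.7 and 28.3 FPKM in NFIA-expressing cells and 71.0, 58.9 and 57.0 FPKM in control cells (log2 change -1.07 ± 0.09, adjusted p = 4.1e-08).

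The light chains and thick filament genes held the largest change of the list. Myl4 was at 56.4, 85.1 and 82.5 FPKM in NFIA-expressing cells, against 1862, 2414 and 2914 FPKM in control cells, 32.1-fold lower (log2 change -4.99 ± 0.27, adjusted p = 4.5e-10). Mylpf was at 2073, 2408 and 2977 FPKM in NFIA-expressing cells, against 21626, 21288 and 22207 FPKM in control cells (log2 change -3.14 ± 0.34, adjusted p = 1.1e-06). Myl2, the slow-muscle and ventricular regulatory light chain, was low in both, at 0.65, 1.56 and 0.66 FPKM in NFIA-expressing cells and 15.5, 15.2 and 20.6 FPKM in control cells. The groups did not overlap for any of the 3 genes, though Mylpf in NFIA-expressing cells was still the highest of the 46 RNAs. Mybpc2, the fast-muscle myosin-binding protein C, was at 0.32, 0.3 and 0.41 FPKM in NFIA-expressing cells, against 21.3, 19.4 and 19.6 FPKM in control cells, 58.5-fold lower (log2 change -3.97 ± 0.09). Its slow-muscle paralogue Mybpc1 was at 7.13, 6.60 and 7.93 FPKM in NFIA-expressing cells and 63.9, 65.1 and 73.5 FPKM in control cells (log2 change -3.06 ± 0.08). Mybph was at 109.9, 150.2 and 152 FPKM in NFIA-expressing cells and 772, 977 and 953 FPKM in control cells. The 7 myosin-binding and M-band genes were all called lower, Myom2, an M-band protein of fast fibres, by the smallest log2 change of the 7, -2.26 ± 0.12.

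Titin itself and its partners fell unequally. Ttn was at 5.08, 3.56 and 4.03 FPKM in NFIA-expressing cells, against 28.1, 20.4 and 18.6 FPKM in control cells (log2 change -2.15 ± 0.17, adjusted p = 4.8e-08). Ankrd23, a muscle ankyrin repeat protein, was at 2.90, 3.98 and 4.14 FPKM in NFIA-expressing cells, against 59.3, 70.8 and 72.0 FPKM in control cells (log2 change -3.88 ± 0.14). Its relatives changed less: Ankrd1 was at 40.9, 42.1 and 42.9 FPKM in NFIA-expressing cells and 209, 225 and 223 FPKM in control cells, and Ankrd2 changed by -1.18 ± 0.14. Des, desmin, the intermediate filament that ties Z-discs together, was at 139, 152 and 178 FPKM in NFIA-expressing cells and 825, 782 and 807 FPKM in control cells (log2 change -2.36 ± 0.10). Cryab had one of the smallest changes, -1.13 ± 0.17. Smyd1 and Unc45b, which help myosin fold and assemble, changed by -2.88 and -3.11 on the log2 scale.

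**Figure D3:**
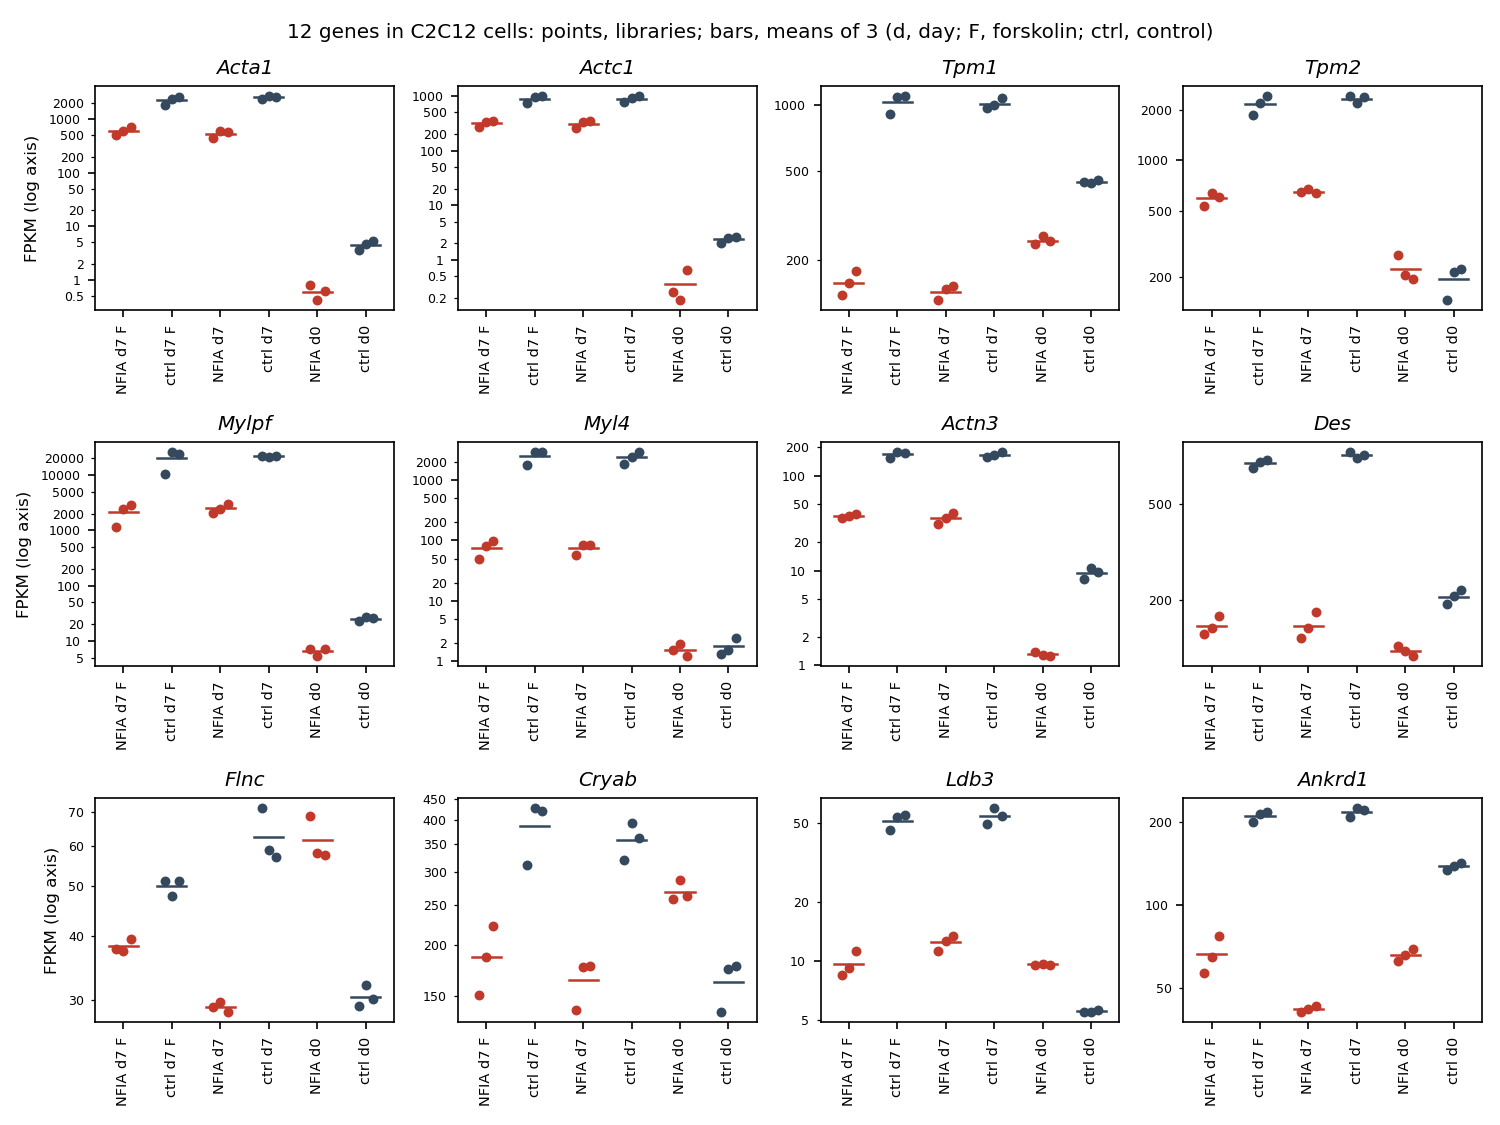
FPKM of 12 sarcomere genes in each C2C12 library on log axes, in 6 groups of 3, NFIA-expressing cells left of control cells within each condition; each point is a library and each bar the mean of a group. Day 7 values of NFIA-expressing cells lie below those of control cells in all 12 panels, and at day 0 Flnc, Cryab and Ldb3 lie above theirs.

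Other gene lists are read against the 55.5% of all tested genes called at day 7, 26.1% higher and 29.4% lower. All 17 tested genes of a list of other sarcomere genes (mainly myosin heavy chains and troponins) were called lower in NFIA-expressing cells at day 7, as were 12 of 12 skeletal muscle genes outside the sarcomere, such as the creatine kinase gene Ckm. Of 13 tested myogenic regulators, 10 were lower and 1 was higher. Myog, myogenin, was at 104, 149 and 196 FPKM in NFIA-expressing cells and 453, 622 and 621 FPKM in control cells, and Mef2c at 2.56, 1.97 and 2.83 FPKM in NFIA-expressing cells and 73.6, 63.1 and 62.8 FPKM in control cells. Myod1 was at 10.2, 16.2 and 22.9 FPKM in NFIA-expressing cells and 29.3, 35.9 and 34.8 FPKM in control cells. Among 13 tested non-muscle relatives of the sarcomere genes, 8 were lower and 1 was higher, or 69.2% called, with a median change of -0.45. Of 22 tested genes of proteins that associate with the sarcomere, 19 were lower and 2 were higher. Of 7 smooth muscle and pericyte genes, 5 were lower and 2 were higher. Of 10 adipocyte genes, 8 were higher and 1 was lower, and the list summed to between 22867 and 25079 FPKM in NFIA-expressing cells, against 100.6 to 103.2 FPKM in control cells. The part of these changes in the fall of the sarcomere genes was not tested.

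NFIA-expressing cells still raised most sarcomere genes over time. The 46 genes summed to 4463, 5243 and 5831 FPKM at day 7, against 1178, 1164 and 1108 FPKM at day 0 of the same cells. Of the 42 tested genes, 34 rose and 6 fell, while 56.9% of all tested genes were called in either direction, 27.5% higher and 29.4% lower. The median change was 2.16 on the log2 scale, against -0.01 over all tested genes. Mylpf was at 2073, 2408 and 2977 FPKM at day 7, against 7.03, 5.29 and 7.24 FPKM at day 0 (log2 change 8.36 ± 0.34, adjusted p = 1.4e-11), and Acta1 at 443, 604 and 579 FPKM at day 7, against 0.78, 0.41 and 0.6 FPKM at day 0 (8.40 ± 0.17, adjusted p = 6.2e-15). Actc1 changed by 7.84 ± 0.16, Myl1 by 7.12 ± 0.15 and Mybph by 6.92 ± 0.16. These 5 were the largest changes, and each exceeded 6 log2 units in NFIA-expressing cells. Myoz1 and Tmod4 were not called, with Myoz1 at 0.25, 0.36 and 0.34 FPKM at day 7 and 0.01, 0 and 0 FPKM at day 0.

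The 6 genes that fell between day 0 and day 7 in NFIA-expressing cells were Tpm3, Flnc, Obsl1, Tpm1, Cryab and Ankrd1, and all 6 rose in control cells. Flnc was at 29.0, 29.7 and 28.3 FPKM at day 7 and 68.8, 58.1 and 57.6 FPKM at day 0 of NFIA-expressing cells, against 71.0, 58.9 and 57.0 FPKM at day 7 and 29.2, 32.0 and 30.1 FPKM at day 0 of control cells. Tpm3 was at 49.4, 60.3 and 59.98 FPKM at day 7 and 114, 128 and 126 FPKM at day 0 of NFIA-expressing cells (log2 change -1.11 ± 0.11, adjusted p = 4.4e-07). Ankrd1 was at 40.9, 42.1 and 42.9 FPKM at day 7 and 62.6, 66.3 and 69.7 FPKM at day 0 of NFIA-expressing cells (log2 change -0.64 ± 0.09). For all 3 the 2 days did not overlap in NFIA-expressing cells, in a comparison where 64.9% of all tested genes had groups that did not overlap. Des, high at both times, rose by only 0.34 ± 0.10 in NFIA-expressing cells, with 139, 152 and 178 FPKM at day 7 and 128, 123 and 116 FPKM at day 0. That call was lost without replicate 3 of the NFIA day 7 group and with quantile normalization.

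Before differentiation, the difference between NFIA-expressing and control myoblasts was mixed. The 46 genes summed to 1178, 1164 and 1108 FPKM in NFIA-expressing cells and 1278, 1435 and 1483 FPKM in control cells at day 0. Of the 42 tested genes, 15 were lower and 3 were higher, while 21.2% of all tested genes were called in either direction, 12.1% higher and 9.07% lower. At an unadjusted p under 0.05 there were 22. No share of all tested genes at that threshold is given here or below, so such counts cannot be read as more than the background. The median change of the 42 genes was -0.11, against 0.02 over all tested genes. Of the 46 genes, 13 were at 1 FPKM or more in all 3 NFIA libraries and 18 in all 3 control libraries. The 1 FPKM added before the log holds changes of the low genes near 0. With 0.1 FPKM added instead, 24 of the 42 were called, and 3139 of all 14351 tested genes. With only the groups compared in the fit, 13 of 18 tested were called, and 1872 of all 12787 tested genes. For 27 of the 42 the groups did not overlap, against 33.5% of all tested genes.

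Pdlim3, a PDZ and LIM protein that binds alpha-actinin, had the largest change at day 0, with 0.39, 0.3 and 0.35 FPKM in NFIA-expressing cells and 4.67, 5.91 and 5.38 FPKM in control cells, 15.3-fold lower (log2 change -2.23 ± 0.13, adjusted p = 4.9e-09). Actn3 was at 1.39, 1.28 and 1.25 FPKM in NFIA-expressing cells and 8.22, 10.7 and 9.67 FPKM in control cells (log2 change -2.19 ± 0.10, adjusted p = 4.9e-10). Mylpf was at 7.03, 5.29 and 7.24 FPKM in NFIA-expressing cells and 22.8, 26.7 and 26.3 FPKM in control cells (log2 change -1.81 ± 0.34). In all 3 the groups were apart, at levels far under those of day 7. Both actins were lower: Acta1 was at 0.78, 0.41 and 0.6 FPKM in NFIA-expressing cells and 3.53, 4.70 and 5.30 FPKM in control cells, and Actc1 at 0.26, 0.18 and 0.64 FPKM in NFIA-expressing cells and 2.03, 2.50 and 2.63 FPKM in control cells. Abundant structural genes were lower as well. Ankrd1 was at 62.6, 66.3 and 69.7 FPKM in NFIA-expressing cells and 134, 139 and 142 FPKM in control cells (log2 change -1.06 ± 0.09, adjusted p = 4.8e-07). Tpm1, alpha-tropomyosin, was at 235, 255 and 242 FPKM in NFIA-expressing cells and 447, 442 and 456 FPKM in control cells (log2 change -0.88 ± 0.11). Des was at 128, 123 and 116 FPKM in NFIA-expressing cells and 192, 207 and 220.4 FPKM in control cells (log2 change -0.75 ± 0.10). The other genes called lower were Myl1, Synpo2l, Ttn, Neb, Myom2, Xirp1 and Lmod3, with log2 changes between -1.15 and -0.40. Neb, at 0.1, 0.06 and 0.08 FPKM in NFIA-expressing cells and 1.01, 0.56 and 0.73 FPKM in control cells, lost its call without replicate 1 of the control group or without replicate 2 of the NFIA group at day 0.

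Flnc, Cryab and Ldb3 were higher in NFIA-expressing myoblasts. Flnc was at 68.8, 58.1 and 57.6 FPKM in NFIA-expressing cells and 29.2, 32.0 and 30.1 FPKM in control cells (log2 change 0.99 ± 0.09, adjusted p = 5.3e-07). Cryab was at 257, 287 and 262 FPKM in NFIA-expressing cells and 137, 174 and 177 FPKM in control cells (log2 change 0.73 ± 0.17, adjusted p = 0.0046). Ldb3, the Z-disc protein ZASP or Cypher, was at 9.57, 9.68 and 9.54 FPKM in NFIA-expressing cells and 5.49, 5.50 and 5.63 FPKM in control cells (log2 change 0.70 ± 0.10, adjusted p = 9.8e-05). No NFIA library overlapped a control library for any of the 3. Tpm2 did not pass the test, with 272, 206 and 194 FPKM in NFIA-expressing cells and 145, 214 and 223 FPKM in control cells (log2 difference 0.22 ± 0.17, adjusted p = 0.44). Its groups overlapped, and its sign turned with only the libraries of the later header date.

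The effect of NFIA at day 7 was set against that at day 0 by an interaction term. The term was negative and called for 38 of the 42 tested genes and positive and called for 0, while 45.3% of all tested genes were called in either direction, 19.8% positive and 25.5% negative. Flnc, Cryab and Ldb3 changed in opposite directions at the 2 times, with terms of -2.06 ± 0.12, -1.86 ± 0.23 and -2.74 ± 0.14 on the log2 scale. Ldb3, for example, was at 11.2, 12.6 and 13.4 FPKM in NFIA-expressing cells and 49.2, 59.5 and 54.5 FPKM in control cells at day 7. The largest terms belonged to Myl4 (-4.88 ± 0.38), Tcap (-4.57 ± 0.44), Mybpc2 (-3.96 ± 0.12), Ankrd23 (-3.79 ± 0.19) and Myot (-3.70 ± 0.13), all of which were below 2.5 FPKM in every control library at day 0. The 4 genes without a call were Acta1 (-0.48 ± 0.24), Actc1 (-0.21 ± 0.22), Pdlim3 (-0.12 ± 0.18) and Actn3 (0.00 ± 0.14). These values depend on the 1 FPKM added before the log. By the ratio of means, Actn3 was 4.63-fold lower at day 7 and 7.30-fold lower at day 0, Pdlim3 5.24-fold and 15.3-fold, Acta1 4.76-fold and 7.58-fold, and Actc1 2.90-fold and 6.62-fold. With 0.1 FPKM added instead, the term was called negative for 32 genes and positive for 3, Actc1, Pdlim3 and Actn3. The calls of Myl1, Mylpf, Myom2, Neb, Synpo2l and Ttn were lost, and the terms of Ttn and Synpo2l turned from negative to positive, to 0.44 for Ttn (adjusted p = 0.32) and 0.43 for Synpo2l (adjusted p = 0.11). By the ratio of means, Ttn was 5.29-fold lower at day 7 and 45.5-fold lower at day 0, and Synpo2l 6.10-fold and 18.6-fold. Neb, Myl1, Lmod2, Lmod3, Myom3 and Unc45b were also lower by a larger ratio of means at day 0 than at day 7. Their control means at day 0 were at most 1.6 FPKM.

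With forskolin, the fall in NFIA-expressing cells was of the same kind. The 46 genes summed to 3652, 5314 and 6044 FPKM in NFIA-expressing cells with forskolin, against 22906, 40832 and 39581 FPKM in control cells with forskolin. Of the 42 tested genes, 42 were called lower and 0 higher, while 61.6% of all tested genes were called in either direction, 28.7% higher and 32.9% lower. The median change was -2.63, against -0.04 over all tested genes. The groups did not overlap for any of the 42, against 65.1% of all tested genes, 34.5% with the NFIA group lower. Here too 42 of the 46 genes were at 1 FPKM or more in all 3 control libraries and 38 in all 3 NFIA libraries. Some, such as Mybpc2 and Myoz1, thus passed the filter only through control libraries. Myl4 was at 49.3, 81.2 and 96.5 FPKM in NFIA-expressing cells and 1768, 2911 and 2924 FPKM in control cells (log2 change -5.06 ± 0.27), and Tcap at 1.16, 1.10 and 3.83 FPKM in NFIA-expressing cells and 59.8, 111 and 109.9 FPKM in control cells (log2 change -5.02 ± 0.31). Unc45b, a myosin chaperone, was at 2.16, 1.6 and 2.66 FPKM in NFIA-expressing cells and 25.5, 35.6 and 33.5 FPKM in control cells (log2 change -3.37 ± 0.18). Flnc had the smallest change, with 37.7, 37.4 and 39.4 FPKM in NFIA-expressing cells and 51.2, 47.9 and 51.1 FPKM in control cells (log2 change -0.38 ± 0.09, adjusted p = 0.0012). Replicate 1 of each forskolin group, the libraries of the earlier header date, was the lowest for Mylpf, at 1153, 2449.6 and 2879 FPKM in NFIA-expressing cells and 10519, 25640.2 and 23731 FPKM in control cells.

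Within control cells, the test for a change with 4 h of forskolin called a small number of sarcomere genes, and the number depended on the header date. Of the 42 tested genes, 1 rose and 2 fell, 3 in all or 7.14%, while 3.97% of all tested genes were called, 1.92% higher and 2.06% lower. At an unadjusted p under 0.05 there were 11, and the median change was -0.05. Synpo2l, which binds actin at the Z-disc, was at 28.0, 28.8 and 30.3 FPKM with forskolin and 46.3, 45.1 and 44.5 FPKM without it (log2 change -0.63 ± 0.12, adjusted p = 0.0071). Xirp1, an actin-binding protein of muscle attachment sites, was at 8.49, 8.60 and 8.37 FPKM with forskolin and 13.4, 12.1 and 11.7 FPKM without it (log2 change -0.50 ± 0.07, adjusted p = 6.7e-04). The forskolin and untreated libraries did not overlap for either, and 18.7% of all tested genes had groups that did not overlap. Lmod2, leiomodin 2, was at 63.4, 62.8 and 68.1 FPKM with forskolin and 51.2, 57.5 and 56.1 FPKM without it. Its adjusted p was 0.049 and ended above 0.05 without any 1 of the 6 libraries. With the header date as a term, Ankrd23, Flnc, Nrap and Pdlim3 were called too, which made 7, while calls over all 14351 tested genes went up to 1343, against 570 without the term.

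Within NFIA-expressing cells, forskolin raised 6 of the 42 tested genes and lowered 2, or 19.0%, while 32.6% of all tested genes were called in either direction, 15.7% higher and 16.9% lower. Ankrd1 rose most, to 56.9, 65.1 and 77.4 FPKM with forskolin, against 40.9, 42.1 and 42.9 FPKM without it (log2 change 0.64 ± 0.09, adjusted p = 7.4e-05). Flnc was at 37.7, 37.4 and 39.4 FPKM with forskolin and 29.0, 29.7 and 28.3 FPKM without it (log2 change 0.39 ± 0.09, adjusted p = 0.003). Lmod2 was at 10.7, 10.4 and 11.2 FPKM with forskolin and 8.22, 8.02 and 8.27 FPKM without it (log2 change 0.36 ± 0.06, adjusted p = 4.1e-04). For these 3 every forskolin library lay above every untreated one. The groups did not overlap for 6 of the 42 genes, all higher with forskolin, against 42.3% of all tested genes, 20.5% of all being higher. Myom2 was at 37.5, 32.4 and 35.5 FPKM with forskolin and 31.1, 25.6 and 26.5 FPKM without it, Myot changed by 0.31 and Actn2 by 0.23. The 2 genes that fell were Ldb3, with 8.49, 9.25 and 11.2 FPKM with forskolin and 11.2, 12.6 and 13.4 FPKM without it, and Unc45b, with 2.16, 1.6 and 2.66 FPKM with forskolin and 2.46, 3.65 and 4.91 FPKM without it. The count of 8 fell to 4 without replicate 2 of the NFIA day 7 group, which lost Ldb3, Myom2, Myot and Unc45b, and to 4 without replicate 3, which lost Actn2, Ldb3, Myom2 and Unc45b. With the header date as a term Csrp3, Neb, Obsl1, Tpm3 and Ttn were called too, which made 13, while calls over all tested genes went up to 6992, against 4681 without the term. Acta1, Mylpf, Tpm2 and Des were not called, with Acta1 at 507, 616 and 711 FPKM with forskolin and 443, 604 and 579 FPKM without it.

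The forskolin responses of NFIA-expressing and control cells differed for 5 of the 42 tested genes, all with a positive term, while 20.1% of all tested genes were called in either direction, 10.5% positive and 9.61% negative. They were Ankrd1 (0.69 ± 0.13, adjusted p = 0.0014), Flnc (0.69 ± 0.12, adjusted p = 9.0e-04), Xirp1 (0.64 ± 0.10, adjusted p = 3.2e-04), Myot (0.60 ± 0.13, adjusted p = 0.0046) and Actn2 (0.46 ± 0.11, adjusted p = 0.0092). Ankrd1 was at 201, 215 and 218 FPKM with forskolin and 209, 225 and 223 FPKM without it in control cells, where it did not pass the test. With the header date as a term Pdlim3, Synpo2l and Tpm3 were called too, which made 8, while calls over all tested genes went up to 5149, against 2890 without the term. Non-muscle relatives of these genes had a positive term as well, 7 of 13 tested. Actg1, a cytoplasmic actin, was at 967, 1119.5 and 1080.4 FPKM with forskolin and 266, 301 and 289 FPKM without it in NFIA-expressing cells (log2 change 1.88 ± 0.10), and at 196, 214 and 210.2 FPKM with forskolin and 292, 303 and 334 FPKM without it in control cells. Flna, the non-muscle filamin, changed by 1.22 ± 0.09 and Tpm4 by 1.17 ± 0.07 in NFIA-expressing cells. In the libraries of the later header date alone, 2 a group, calls were 20 for NFIA against control at day 0, 42 at day 7 and 42 with forskolin, 41 over time in NFIA-expressing cells and 42 in control cells, 11 for forskolin in NFIA-expressing cells and 3 in control cells, and 38 and 6 for the day and forskolin interactions. Over all 13997 genes tested there, calls for NFIA against control were 3997 at day 0, 9336 at day 7 and 10003 with forskolin. Over time they were 9305 in NFIA-expressing cells and 8420 in control cells. For forskolin they were 6612 in NFIA-expressing cells and 750 in control cells, and for the day and forskolin interactions 7950 and 4556. Nfia was itself 2.95-fold higher with forskolin in NFIA-expressing cells, and its part in these differences was not tested.

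The proportions of paralogues at day 7 differed between the cells. The pairs were chosen after their values were seen, so the shares are a description. Actc1 made up 35.3% to 37.1% of the sum of Acta1 and Actc1 in NFIA-expressing cells, against 24.3% to 27.6% in control cells. Myl4 made up 28.8% to 33.9% of Myl1 plus Myl4 in NFIA-expressing cells, against 63.7% to 69.0% in control cells. Mybpc2 was 4.30% to 4.92% of Mybpc1 plus Mybpc2 in NFIA-expressing cells, against 21% to 25.0% in control cells. Actn3 was 84.5% to 86.7% of Actn2 plus Actn3 in NFIA-expressing cells, against 66.6% to 67.5% in control cells. The cardiac actin and the fast alpha-actinin had the larger share in NFIA-expressing cells, and the embryonic light chain and the fast myosin-binding protein C the smaller. Tpm2 made up 74.9% to 78.1% of the 3 tropomyosins in NFIA-expressing cells, against 65.0% to 67.8% in control cells.

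**Figure D4:**
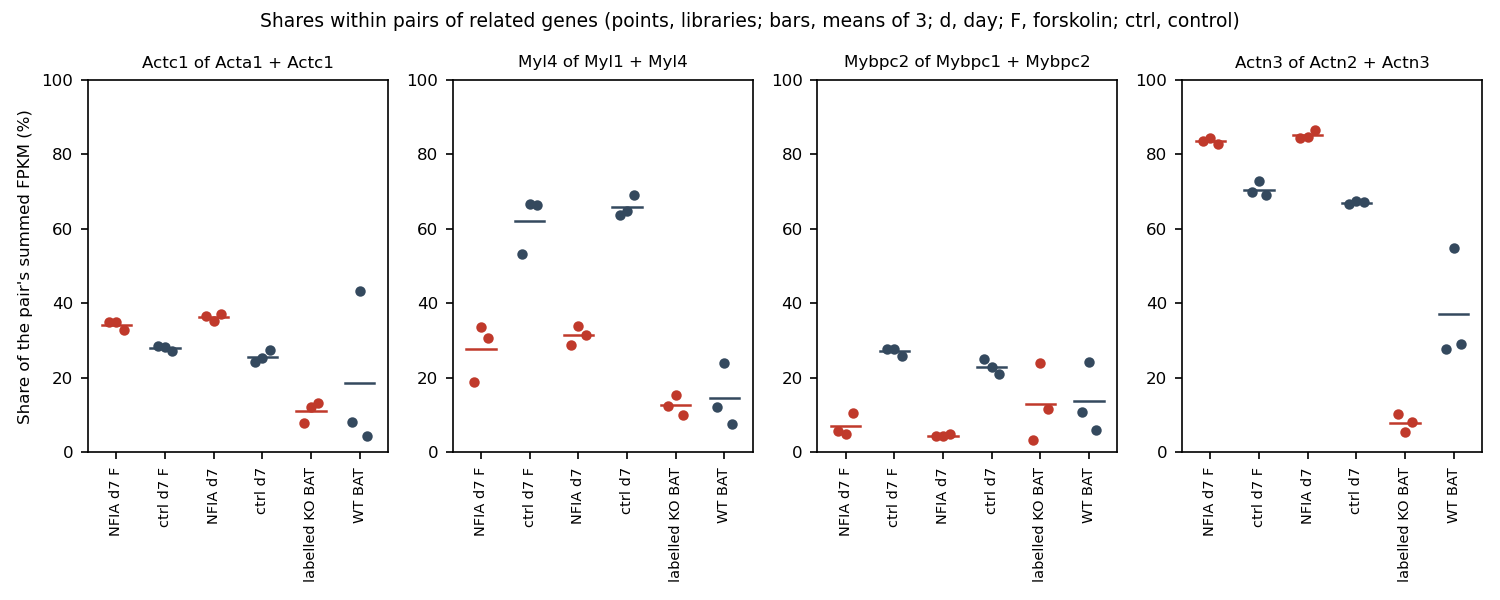
Share of 1 gene in the summed FPKM of a pair of paralogues, in percent, for Actc1, Myl4, Mybpc2 and Actn3, in each C2C12 library at day 7, with forskolin and without it, and in each tissue library, with NFIA-expressing or labelled NFIA-KO groups left of control or WT groups. At day 7 the NFIA points lie above the control points for Actc1 and Actn3 and below them for Myl4 and Mybpc2.

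In brown adipose tissue the sarcomere genes were higher in the libraries labelled NFIA-KO. This direction rests on the labels, which whole-gene FPKM of Nfia, not lower in those libraries, cannot check. The 46 genes summed to 2642, 671.1 and 1516 FPKM in the libraries labelled NFIA-KO and 307.1, 324.5 and 368.4 FPKM in WT libraries. In WT tissue the highest was Tpm3, with a mean of 49.4 FPKM, and no gene of the list had a mean of 100 FPKM or more. Here 36 of the 46 genes were tested, and 34 of the 46 were at 1 FPKM or more in all 3 libraries labelled NFIA-KO but 16 in all 3 WT libraries, so many entered through the group where they were high. Of the 36, 17 were called higher and 0 lower, while 7.14% of all 13618 tested genes were called, and 3.59% were called higher. At an unadjusted p under 0.05 there were 30, and the median difference was 1.85, against -0.02 over all tested genes. For 28 of the 36 the groups did not overlap, against 34.7% of all tested genes, 16.5% with the libraries labelled NFIA-KO higher.

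The libraries labelled NFIA-KO differed among themselves. In 30 of the 36 tested genes replicate 1 was highest, then replicate 3, then replicate 2. Replicate 2 of the WT group stood apart from the other WT libraries in another way. Its Actc1 was at 9.82 FPKM, against 1.39 and 1.92 FPKM in the other WT libraries, its Mybph at 2.68 FPKM, against 0.09 and 0.1 FPKM, and its Ankrd1 at 2.05 FPKM, against 0.18 and 0.12 FPKM. Among WT libraries it also held the most of Myh3, the embryonic myosin heavy chain, at 4.5 FPKM, and of Myog, at 2.9 FPKM, while its Myl2, at 0.11 FPKM, and its Ckm, at 0.76 FPKM, were the lowest of the WT group. Without this library 8 of 34 tested genes were called, 6 of them among the 17. Calls over all 13388 tested genes then went up to 1361, against 973 of 13618 with every library.

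The 17 calls were fragile. They became 0 without replicate 1 or without replicate 3 of the WT group, and 0 with no filter on low values. Genes with an unadjusted p under 0.05 then numbered 26 of 36, 25 of 36 and 34 of 46. No share of all tested genes is set beside these numbers, so they cannot be read as more than the background. Calls over all tested genes numbered 973 with every library and the filter, 19 without WT replicate 1, 53 without WT replicate 3 and 40 with no filter. A single gene was called without replicate 1 (Csrp3) and 1 without replicate 3 (Tpm1) of the libraries labelled NFIA-KO, and 13 without replicate 2, where all tested genes gave 148 calls without replicate 1, 541 without replicate 3 and 109 without replicate 2. Where replicate 1 or 3 of that group was left out, 25 of the 46 genes were tested. In every one of these settings the tested genes among the 17 stayed higher in the libraries labelled NFIA-KO. That could not come out otherwise with a library left out. For each of the 17, every library labelled NFIA-KO was above every WT library.

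Acta1 was at 604, 89.8 and 287 FPKM in the libraries labelled NFIA-KO, against 15.7, 12.8 and 41.9 FPKM in WT libraries (log2 change 3.55 ± 0.72, adjusted p = 0.041). Actc1 missed the threshold, at 51.8, 12.4 and 43.4 FPKM in the libraries labelled NFIA-KO and 1.39, 9.82 and 1.92 FPKM in WT libraries (log2 difference 2.90 ± 0.70, adjusted p = 0.054). Without replicate 2 of the WT group its difference was 3.58 and was called. Every library labelled NFIA-KO was above every WT library for both actins. Tpm2 was at 191, 47.5 and 112 FPKM in the libraries labelled NFIA-KO, against 18.9, 16.4 and 31.0 FPKM in WT libraries (log2 change 2.19 ± 0.49, adjusted p = 0.046). Tpm1, made in many cell types, was at 137, 89.2 and 142 FPKM in the libraries labelled NFIA-KO, against 52.0, 41.8 and 49.1 FPKM in WT libraries (log2 change 1.32 ± 0.20, adjusted p = 0.024). Tpm3 was at 50.5, 38.8 and 40.5 FPKM in the libraries labelled NFIA-KO and 53.0, 43.4 and 52.0 FPKM in WT libraries and was not called (log2 difference -0.19 ± 0.15, adjusted p = 0.43). Tpm1 and Tpm2 were thus apart between groups and Tpm3 overlapped. Neb was at 23.7, 4.14 and 14.1 FPKM in the libraries labelled NFIA-KO, against 1.30, 0.65 and 2.09 FPKM in WT libraries, and Lmod2 at 7.47, 1.30 and 3.26 FPKM in the libraries labelled NFIA-KO, against 0.1, 0.06 and 0.31 FPKM in WT libraries.

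Thick filament genes had 3 of the 4 largest log2 changes in tissue, beside Acta1. Mybpc1 was at 66.4, 11.3 and 39.8 FPKM in the libraries labelled NFIA-KO, against 1.98, 0.53 and 3.60 FPKM in WT libraries (log2 change 3.55 ± 0.66, adjusted p = 0.033). Myl2 was at 35.9, 6.23 and 25.6 FPKM in the libraries labelled NFIA-KO, against 1.08, 0.11 and 1.13 FPKM in WT libraries (log2 change 3.50 ± 0.60, adjusted p = 0.029). Mylpf was at 867, 131 and 444 FPKM in the libraries labelled NFIA-KO, against 25.0, 35.5 and 55.6 FPKM in WT libraries (log2 change 3.29 ± 0.65, adjusted p = 0.039). All 3 were apart between groups, with replicate 2 of the libraries labelled NFIA-KO nearest the WT values. Mybpc2 had the smallest adjusted p, 0.018, with 2.23, 3.60 and 5.24 FPKM in the libraries labelled NFIA-KO and 0.24, 0.17 and 0.23 FPKM in WT libraries. Myom2 was at 9.57, 1.91 and 5.98 FPKM in the libraries labelled NFIA-KO and 0.16, 0.58 and 0.39 FPKM in WT libraries.

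Of 10 tested Z-disc genes, 7 were called higher: Myoz2, Actn2, Csrp3, Myot, Tcap, Myoz1 and Ldb3, with log2 changes between 2.05 and 2.94. Actn2 was at 36.1, 6.93 and 20.1 FPKM in the libraries labelled NFIA-KO, against 1.5, 1.02 and 2.17 FPKM in WT libraries (2.87 ± 0.52, adjusted p = 0.033). Csrp3 was at 30.5, 4.41 and 9.23 FPKM in the libraries labelled NFIA-KO, against 0.58, 0.74 and 1.29 FPKM in WT libraries, and Myoz2 at 22.1, 3.19 and 11.7 FPKM in the libraries labelled NFIA-KO, against 0.13, 0.11 and 1.17 FPKM in WT libraries. Tcap was at 13.3, 2.54 and 6.77 FPKM in the libraries labelled NFIA-KO, against 0.31, 0.19 and 0.87 FPKM in WT libraries. None of these 4 genes had overlapping groups. Actn3, by contrast with Actn2, was not called and overlapped, at 4.16, 0.4 and 1.77 FPKM in the libraries labelled NFIA-KO and 0.58, 1.24 and 0.89 FPKM in WT libraries.

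Des was at 89.7, 39.3 and 37.0 FPKM in the libraries labelled NFIA-KO and 30.6, 26.0 and 27.3 FPKM in WT libraries and was not called (log2 difference 0.84 ± 0.32, adjusted p = 0.14). Unc45b was not called either, at 40.0, 39.5 and 27.2 FPKM in the libraries labelled NFIA-KO and 35.1, 35.6 and 26.6 FPKM in WT libraries (log2 difference 0.12 ± 0.19, adjusted p = 0.72). Its locus in the tables also covers 3 other genes, and the tables do not show how reads between them were divided. Obsl1, which links the M-band and Z-disc to the cytoskeleton, and Ankrd23 did not follow the library order of the rest either. Obsl1 was highest in replicate 2 of the libraries labelled NFIA-KO, at 72.6 FPKM, and Ankrd23 in replicate 3, at 12.8 FPKM.

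**Figure D5:**
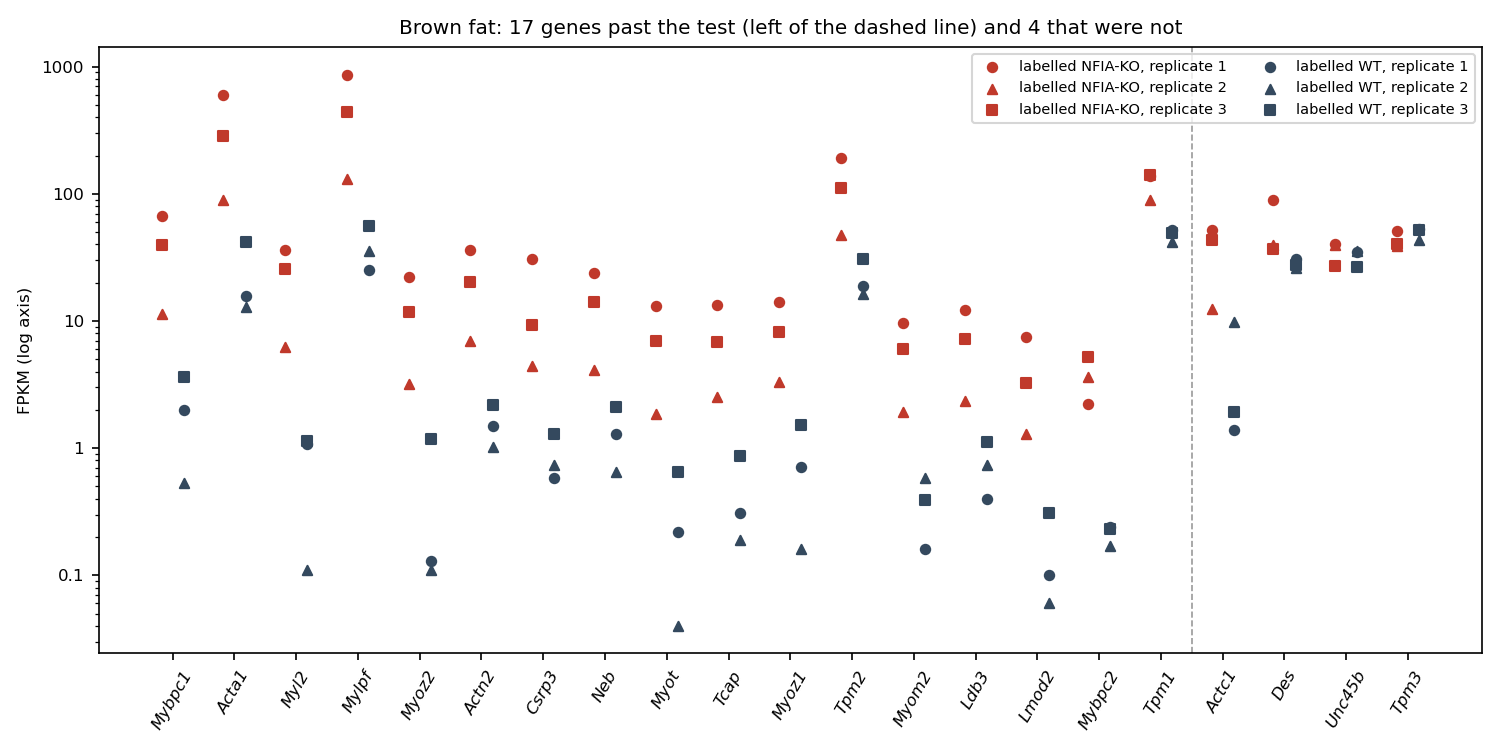
FPKM of 21 sarcomere genes in each brown adipose tissue library on a log axis, libraries labelled NFIA-KO left of WT libraries, with a marker shape for each replicate number; the dashed line sets the 17 called genes apart from Actc1, Des, Unc45b and Tpm3, which were not called. Replicate 1 of the libraries labelled NFIA-KO is the highest point for most called genes and replicate 2 the lowest of that group for all of them but Mybpc2.

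Several other muscle genes were also higher in the libraries labelled NFIA-KO, against 3.59% of all tested genes called higher. Skeletal muscle genes outside the sarcomere summed to 457.4, 89.2 and 242.6 FPKM in the libraries labelled NFIA-KO and 35.4, 54.7 and 54.0 FPKM in WT libraries, with 3 of 6 tested called higher and none of the 12 at 0 in any tissue library. Ckm was at 148, 26.3 and 80.6 FPKM in the libraries labelled NFIA-KO, against 4.36, 0.76 and 10.8 FPKM in WT libraries (log2 change 3.85 ± 0.81, adjusted p = 0.042), in the same library order as Acta1. Mb, myoglobin, lay the other way and was not called, at 6.0, 1.15 and 3.81 FPKM in the libraries labelled NFIA-KO and 10.9, 32.4 and 7.20 FPKM in WT libraries (log2 difference -1.83 ± 0.60, adjusted p = 0.1). Of the other sarcomere genes, 6 of 11 tested were higher, among them the perinatal myosin heavy chain Myh8, at 81.2, 15.5 and 51.0 FPKM in the libraries labelled NFIA-KO and 2.31, 0.2 and 7.25 FPKM in WT libraries. Heart markers summed to 2.40 to 2.78 FPKM in the libraries labelled NFIA-KO and 1.86 to 4.45 FPKM in WT libraries, and the atrial light chain Myl7 was at 0 in the libraries labelled NFIA-KO. Smooth muscle and pericyte genes summed to 112.5 to 130.3 FPKM in the libraries labelled NFIA-KO and 142.9 to 182.1 FPKM in WT libraries, with 1 of 9, Actg2, called lower. Of 10 adipocyte genes, Ucp1 and Elovl3 were lower and none was higher. Fabp4, an abundant adipocyte gene, is listed at 0 in replicate 3 of the WT group. Of 16 tested sarcomere-associated genes 1, Murc, was lower and none was higher. None of 13 non-muscle relatives and none of 11 blood, vessel and immune genes was called by limma, and 2 of each had an unadjusted p under 0.05. Whether the libraries held different amounts of adjoining skeletal muscle was not tested.

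The make-up of the sarcomere RNAs differed between tissue and cell line, as a description with no test. Actn3 made up 5.46% to 10.3% of Actn2 plus Actn3 in the libraries labelled NFIA-KO, against 66.6% to 67.5% in control C2C12 cells at day 7. Myl2 made up 3.97% to 5.45% of Myl2 plus Mylpf in the libraries labelled NFIA-KO and at most 0.0927% in control C2C12 cells at day 7. Mylpf was 19.5% to 32.8% of the 46 genes in the libraries labelled NFIA-KO. In WT tissue the same shares rest on a few FPKM, with Actn2 plus Actn3 summing to between 2.08 and 3.06 FPKM.

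Several loci in the tables, on mm9, span more than the gene. The entry of Acta1 covers 4435365 bases, chr8:122434260-126869624, and shares its locus with 155 other genes, that of Myom1 with 11, that of Tmod1 with 5 and that of Actc1 with 4. Tcap, by contrast, covers 1143 bases at chr11:98245125-98246267, with no other gene. How reads were assigned within shared loci is not given in the sources used here.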

How the data were processed

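Polyadenylated RNA of 24 samples was sequenced. Per the labels' protocols it was purified with Trizol and an RNeasy kit, and the libraries kept strand. The submitters' processing notes name TopHat, Cufflinks and mm9; no source used here gives versions, annotation, read totals or the use of strand in counting. The authors deposited FPKM values, with no counts, so a count test was not used and no interval for counting error could be had.

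Entries of a gene symbol at overlapping positions were summed, which left 37041 genes of 37305 rows. On the log2(FPKM + 1) scale, limma 3.58.1 (R 4.3.3) was run with its variance trend. The C2C12 libraries shared a fit over 6 groups and the tissue libraries a fit over 2. Genes entered with 1 FPKM or more in 3 or more libraries, 14351 and 13618 of them. P-values were adjusted by Benjamini-Hochberg over all of these and called under 0.05. The script was tested on simulated data.

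The 46 genes and the lists of other genes were chosen with earlier results of these data known. In each comparison the 10 called genes with the largest changes were named where the higher group averaged 5 FPKM or more, with the most abundant gene of each role. In interactions the up to 5 largest terms per direction and the genes called in opposite directions were named, and in tissue every called gene. Tpm2, Tpm3, Des, Unc45b, Actc1, Acta1, Pdlim3, Actn3, Ttn, Synpo2l, Mb and other genes given outside that rule were picked after their values were seen. Replicate numbers were not used as pairs: in tissue, same-numbered libraries had deviations that correlated at -0.009, 0.111 and 0.143, and only 2 numbered pairs exist in C2C12 cells. Alternatives covered the pseudocount, the filter, the scaling, listed zeros, the groups in the fit, the header date, the replicate number and each library left out in turn. Promoter windows came from RefSeq. One list result in tissue is not reported here.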

Additional observations from a re-analysis of the deposited data

Results flagged for a closer look

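The effect of NFIA differed between day 7 and day 0 for 38 of the 42 tested sarcomere genes, by the interaction term of the limma fit, while 45.3% of all tested genes were called, 25.5% negative. The terms with the largest size were -4.88 for Myl4, -4.57 for Tcap, -3.96 for Mybpc2, -3.79 for Ankrd23 and -3.70 for Myot on the log2 scale. The genes called lower at day 7 and higher at day 0 had terms of -1.86 for Cryab, -2.06 for Flnc and -2.74 for Ldb3. All of these terms depend on the 1 FPKM added before the log, which understates changes of genes that were low at day 0. With 0.1 FPKM added, the term was called negative for 32 genes and positive for Actc1, Actn3 and Pdlim3. By the ratio of means, some of the 38, such as Ttn, Synpo2l and Neb, were lower by more at day 0 than at day 7. The forskolin response differed between NFIA-expressing and control cells for 5 of the 42 genes, or 11.9%, which is below the 20.1% called over all tested genes, 10.5% positive. The terms were 0.69 for Ankrd1, 0.69 for Flnc, 0.64 for Xirp1, 0.60 for Myot and 0.46 for Actn2.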

How the results depend on the processing

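The calls at day 7, with forskolin, and of control cells over time stayed at 42 with each library left out, and the other counts of called genes ranged as follows: day 0 from 17 to 19, NFIA-expressing cells over time 39 to 40, the day interaction 37 to 38, the forskolin interaction 5 to 7, forskolin in control cells 2 to 3, forskolin in NFIA-expressing cells 4 to 8, and tissue 0 to 13. Calls over all tested genes ranged from 2324 to 2848 at day 0 and from 7417 to 7729 for NFIA-expressing cells over time. They ranged from 5955 to 6592 for the day interaction and from 2371 to 2852 for the forskolin interaction. For forskolin they were 361 to 447 in control cells and 3746 to 4376 in NFIA-expressing cells, and in tissue 19 to 1361. For the comparisons that stayed at 42 they were 7228 to 7591, 8236 to 8593 and 6085 to 6710. Without a filter tissue had 0 calls, and all 24244 genes tested there gave 40. With the header date as a term, forskolin calls were 7 in control cells, 13 in NFIA-expressing cells and 8 for the interaction, and calls over all tested genes were 1343, 6992 and 5149, against 570, 4681 and 2890 without the term. Forskolin calls in NFIA-expressing cells were 4 with a pseudocount of 0.1 and 3 with only the groups compared. Over all tested genes they were 4684 of 14351 and 3578 of 12942. Signs turned for genes without a call and, with a pseudocount of 0.1, for the day interaction of Ttn (0.44) and Synpo2l (0.43), whose calls were lost. Tpm2 at day 0 was -0.13 with only the later header date, with the replicate block and without. Unc45b in tissue was -0.012 without WT replicate 3 and up to 0.297 with other libraries left out. With a pseudocount of 0.1 the day interaction was 0.48 for Acta1, 1.02 for Actc1 and 1.21 for Pdlim3. That of Pdlim3 was 0.05 with the later header date, with the block and without, and -0.22 to 0.018 with libraries left out. That of Actn3 was -0.12 with quantile normalization and -0.089 to 0.095 with libraries left out. The call of Mylpf in the day interaction was lost without any of 8 single libraries. The cause of these shifts was not tested. With the replicate number as a block, calls were 15 in tissue (17 without), and in the later C2C12 libraries 21 at day 0, 42 at day 7, 41 for NFIA-expressing cells over time and 12 for forskolin in them. Over all tested genes they were 799 in tissue (973 without), of 13618. In the later C2C12 libraries they were 3836, 9216, 9231 and 6411 of 13997, in the same order. The earlier header date holds 1 library of each group and gives no value. Depth is unknown, so low values carry an error that cannot be stated.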
